A study of Homo sapiens with 8 samples.

Results

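The genes described here are MYC and 36 factors of ribosome biogenesis in the established human acute myeloid leukaemia line MOLM-13. They were taken by symbol from a list of names: MYC, RNA polymerase I subunits and factors, proteins of small nucleolar ribonucleoproteins (snoRNPs), assembly factors of the 40S and 60S subunits, and other nucleolar proteins. The list uses no measured value, but it was chosen with earlier results of these data known. All 37 were found among the 58302 genes of both deposited tables. The cells expressed a short hairpin RNA, either the control sh-NC, whose libraries are called the controls, or sh-circMYBL2, named for circMYBL2, a circular RNA of the MYBL2 gene, and the series title concerns the translation of FLT3. For each hairpin there were 2 libraries of input RNA and 2 of ribosome footprints, the stretches of mRNA that ribosomes protect from nuclease. The labels name no dose, time, clone or delivery method for the hairpins. Nor do they state separate cultures for the libraries of a group, so p-values measure the spread between these libraries, which may be technical. The files list genes, so the hairpin was not checked against circMYBL2 itself.

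MYC is a transcription factor that dimerises with MAX, binds the E-box CACGTG and is known to raise transcription of genes for ribosome production. In the nucleolus, RNA polymerase I makes the long precursor of ribosomal RNA. SnoRNPs then modify that precursor, and assembly factors cut and fold it, with ribosomal proteins, into the 40S and 60S subunits. Leukaemia cells that divide fast are known for high MYC and large nucleoli.

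The E-box is shown here because it is the sequence that MYC and MAX recognise, and because several of the genes whose values are described below hold one near a start site. The letters CACGTG, which read the same on both strands, were searched in windows from 250 bases before to 50 bases after the start site, taken from RefSeq (GRCh38.p14, the build of the files). Of the 37 genes, 29 had a window in that table, and 14 of these (48.3%) held the box, against 1727 of 15843 protein-coding genes (10.9%) and 2396 of 27305 genes of all kinds (8.77%). MYC, POLR1E, TCOF1, NOP58, NOLC1, RRP12, BOP1 and RRP1B had no window. Each line below gives the 5′ to 3′ sequence on the gene's strand, with the box in capitals and 12 bases on either side. The genes are those of the 14 whose RNA passed by limma, or whose footprint libraries did not overlap between hairpins.
FBL: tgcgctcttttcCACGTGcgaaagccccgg
RRP9: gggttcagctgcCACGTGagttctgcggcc
NOP10: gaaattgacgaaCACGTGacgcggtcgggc
NOP14: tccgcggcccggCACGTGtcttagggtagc
WDR43: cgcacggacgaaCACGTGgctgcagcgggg
DDX21: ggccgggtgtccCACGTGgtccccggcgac
The FBL stretch is chr19:39846356-39846385 on the minus strand, and its box begins at base 7 of the transcript. Bases before the start site carry negative positions. For RRP9 it is chr3:51941892-51941921 on the minus strand, with the box from position -5. NOP10 holds 2 boxes; the one shown, chr15:34343130-34343159 on the minus strand, begins at position -11, and the other begins at -170. The NOP14 box begins at base 16 of the transcript (chr4:2963374-2963403, minus strand) and the WDR43 box at base 4 (chr2:28894658-28894687, plus strand). DDX21 had 2 windows, of which 1 held the box (chr10:68956604-68956633, plus strand). There the box begins at position -31 from a start site that lies inside the gene, whose first base is 68956170. GAR1, UTP20, BYSL, NAT10, PES1, NOP2, GNL3 and LYAR held the other boxes. A match describes these letters in this window and is not a measured binding site.

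The RNA libraries held 13501744 to 14600091 reads on genes, whereas the footprint libraries held 80134 to 714949. MicroRNA genes took 42.7% and 57.2% of footprint reads in the controls, and 32.8% and 12.2% with sh-circMYBL2. The 37 genes together had 320 and 867 footprint reads in sh-NC libraries 1 and 2, and 986 and 4156 with sh-circMYBL2, whose libraries are named a and b because the columns give no replicate. At least 10 footprint reads were present for 12, 22, 25 and 37 of the 37 genes in that order, and 5 and 2 genes were at 0 in the sh-NC libraries. Values below are listed in this order: sh-NC 1 and 2, then sh-circMYBL2. Of 12 markers of a myeloid leukaemia line, 11 were above 1 FPKM with either hairpin, and none of the erythroid, megakaryocyte or lymphoid markers was. Of 6 adherent and epithelial markers, VIM and KRT18 were above 1 FPKM in the controls, and only VIM was with sh-circMYBL2. The summed myeloid markers were 798 to 838 FPKM in the controls and 981 to 1023 with sh-circMYBL2, and their part in the results below was not tested. In bulk RNA, fewer cells with a transcript and less of it per cell cannot be told apart.

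The RNA of this gene set was nearly the same with both hairpins. Its share of protein-coding reads was 1.20% and 1.23% in the controls and 1.20% and 1.23% with sh-circMYBL2. Of the 36 genes that reached a mean of 1 FPKM, 2 rose (POLR1E and NOP14) and 1 fell (DDX21) at an adjusted p under 0.05 by limma. That is 8.33% of them, against a background of 8.88% of the 12489 genes tested (4.92% higher and 3.96% lower), so the count is near what the whole table gave. The median change was -0.03 on the log2(FPKM + 1) scale over the 36 genes and -0.00 over all genes. PPAN, with 0.553 to 0.865 FPKM, was below the filter. Among the 36, the libraries of the hairpins did not overlap for 8 genes that were higher with sh-circMYBL2 and 16 that were lower, where the background was 30% and 30.7% of all genes tested.

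**Figure D1:**
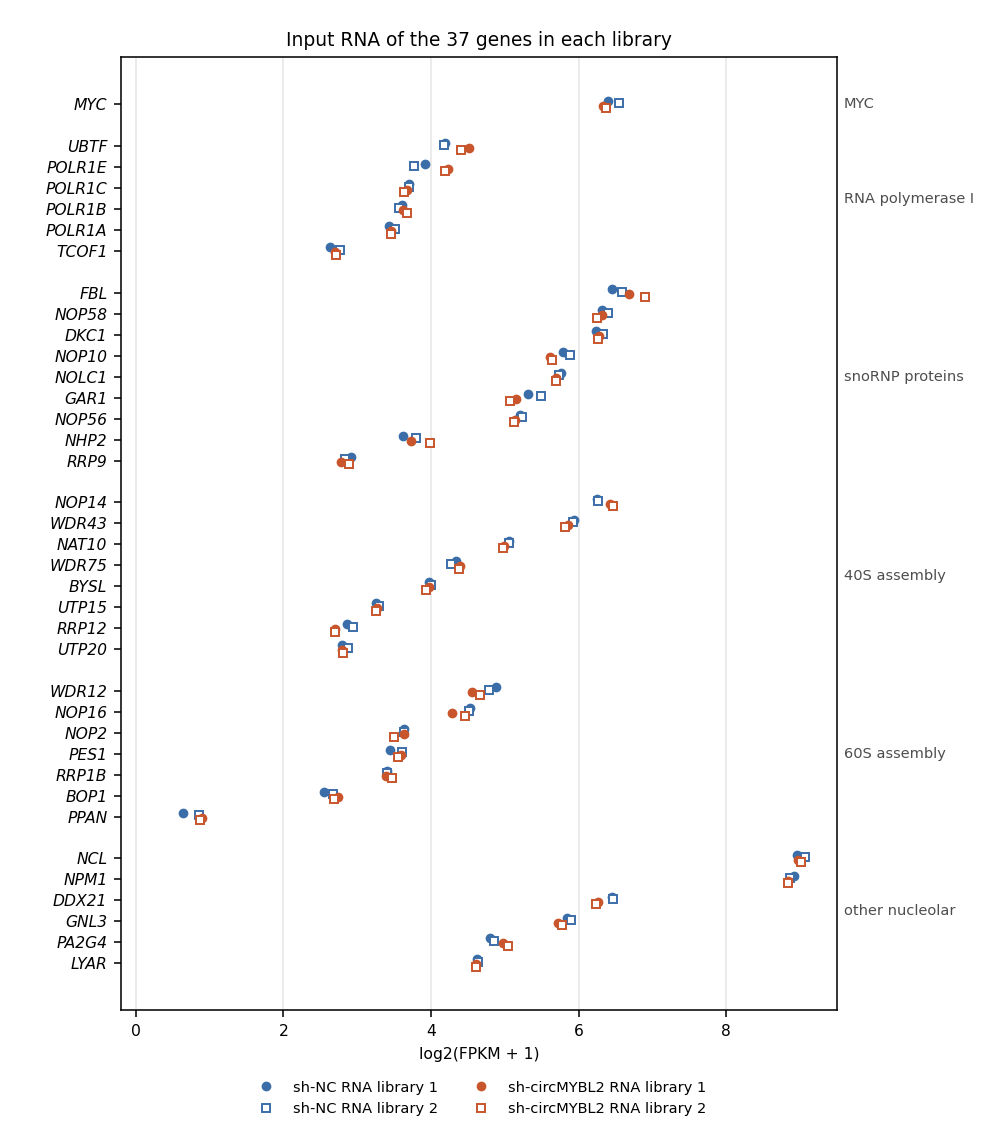
Input RNA of the 37 genes, as log2(FPKM + 1) on the x axis, grouped by role on the y axis, with 1 symbol for each of the 4 libraries. NCL and NPM1 stand to the right of the rest and PPAN to the left, and for most genes the 4 symbols lie close together.

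The footprint share of the gene set was lower with sh-circMYBL2. It was 0.949% (95% Wilson interval 0.851 to 1.06) and 0.978% (0.915 to 1.04) of protein-coding footprint reads with sh-NC. With sh-circMYBL2 it was 0.784% (0.737 to 0.834) and 0.712% (0.690 to 0.733). The libraries did not overlap, but 2 against 2 libraries cannot give an exact two-sided permutation p under 0.333, and these intervals cover counting error only. The share of reads on microRNA genes also separated the hairpins, and its part in this difference was not tested. Gene by gene, limma called none of the 37 in footprints, as it called none (0%) of the 9431 genes tested. At an unadjusted p under 0.05 there were 4 of the 37, against 12.9% of all genes, and voom on recovered reads called 1 (TCOF1) of the 37 and 54 genes in all. Translational efficiency (TE), taken as the footprint change less the RNA change, was called for none of 36 genes, against 5.31% of 8260 (5.05% higher and 0.266% lower). There 7 of the 36 had an unadjusted p under 0.05, against 19.6% of all genes, and voom called 1 (TCOF1 again) and 175 genes in all. TE calls depended on single footprint libraries: 16 of the 36 passed without sh-NC library 1, 19 without sh-NC library 2, 4 when library a was left out and 2 when library b was. In the same fits 37.2%, 60.2%, 10.6% and 9.42% of all genes passed.

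Footprint libraries of the hairpins did not overlap for 5 of the 37 genes that were higher with sh-circMYBL2 (NHP2, NOP10, NOLC1, UTP15 and WDR43) and for 6 that were lower (UBTF, TCOF1, FBL, RRP9, BOP1 and PPAN). The background was 30.7% higher and 10.9% lower over all genes tested, many of which were at 0 in a shallow sh-NC library. Of the 37, 31 were above 0 in all 4 libraries, and 2 of them were higher and 6 lower without overlap. Among all such genes, 22.5% were higher and 21.9% lower. The median footprint change was 0.13 over the 37 genes against 0.56 over all genes tested, and 0.01 against -0.01 where only genes above 0 in all libraries were taken.

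**Figure D2:**
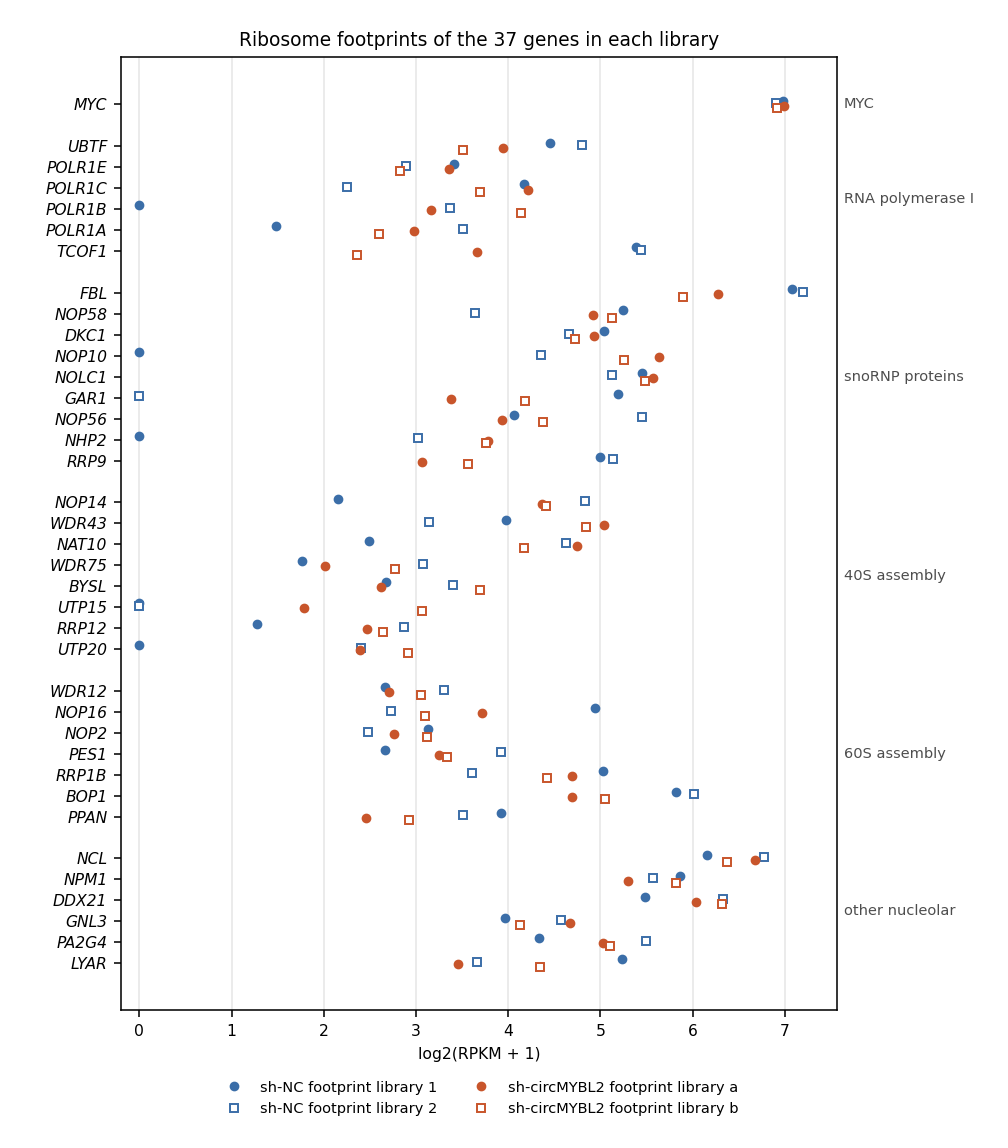
Ribosome footprints of the 37 genes, as log2(RPKM + 1) on the x axis, grouped by role on the y axis, with 1 symbol for each of the 4 libraries. MYC has 4 symbols at nearly the same place, TCOF1, FBL, RRP9 and BOP1 have both sh-NC symbols to the right, and several genes are at 0 in an sh-NC library.

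MYC (ENSG00000136997, chromosome 8, 127735434 to 127742951) was among the most abundant mRNAs of these cells. Its RNA was 83.7 and 92.1 FPKM in the controls and 79.5 and 81.6 FPKM with sh-circMYBL2, which ranked it 212th to 259th among 13584 to 13720 protein-coding genes above 0. Both sh-circMYBL2 libraries lay just below both sh-NC libraries. The change of -0.12 on the log2 scale (SE 0.06, adjusted p = 0.244 by limma) was within the replicate spread by this test. A count-based fit, voom on recovered reads, called a fall of the same size (-0.13, adjusted p = 0.0275).

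MYC footprints were 126, 118, 126 and 119.7 RPKM, from 31, 66, 98 and 400 reads. The 4 libraries lay close together and the hairpins overlapped. The footprint change was 0.01 (SE 0.33, 95% interval -0.91 to 0.93, adjusted p = 0.990 by limma). With quantile normalization it was 0.73 (SE 0.47, limma adjusted p = 0.673), so its size depended on the scaling. Summed over libraries, the scaled reads with sh-circMYBL2 were 1.002 times those with sh-NC, with an exact 95% counting interval of 0.805 to 1.26. This and the counting intervals below leave out the spread between libraries, so one that excludes a ratio of 1 is not a call. They also take each library's scaling total as given, although it differs from the recovered reads on genes. Read ratios scaled to other totals were not tested. The TE change was 0.13 (SE 0.25, interval -0.49 to 0.75, adjusted p = 0.819 by limma). With array weights by assay its SE was 0.66. MYC ranked 95th of 5002, 68th of 7098, 60th of 9075 and 66th of 10486 protein-coding genes with footprints. It had the highest footprint level of the 37 genes in both sh-circMYBL2 libraries, whereas FBL had it in both sh-NC libraries.

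Genes around MYC were taken from a list of its paralogs, partners, antagonists and regulators of its turnover. Of 27 tested in RNA, none rose and 2 fell by limma, with a median of 0.00; 7 had an unadjusted p under 0.05, and voom called 2 that rose and 5 that fell. PVT1, the long noncoding RNA next to MYC, fell from 31.1 ± 0.132 to 23.5 ± 1.34 FPKM (mean ± SD, n = 2 each; -0.39 on the log2 scale, limma adjusted p = 0.0286). MXD1, which competes with MYC for MAX, fell from 10.99 ± 0.258 to 8.57 ± 0.221 FPKM (-0.33, limma adjusted p = 0.0357). MXD1 footprints went the other way, with 0 and 0.848 RPKM in the sh-NC libraries and 14.6 and 11.5 RPKM in the sh-circMYBL2 libraries, a TE rise of 3.68 (limma adjusted p = 0.0289). At such low sh-NC values the size of this rise depends on the pseudocount. Over all genes, TE calls went from 439 to 2 with a pseudocount of 5. All other genes of the list stayed below the threshold in TE.

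Of 27 tested targets of MYC outside ribosome production, 4 rose in RNA and 2 fell, with a median of 0.06. That is 22.2%, against 8.88% of all genes tested; 14 had an unadjusted p under 0.05 (29.2% of all genes did), and voom called 8 that rose and 5 that fell. IMPDH2, the rate-limiting enzyme of guanine nucleotide synthesis, rose from 33.0 ± 2.59 to 44.2 ± 0.0294 FPKM (0.42, limma adjusted p = 0.0376). RANBP1 and RCC1, which act on the RAN GTPase, rose by 0.36 and 0.33. SLC3A2, the shared chain of several amino acid transporters, fell from 12.3 ± 0.795 to 6.86 ± 0.218 FPKM (-0.76, limma adjusted p = 0.0143). CCND2, a cyclin of the G1 phase, fell from 60.3 ± 0.913 to 46.5 ± 1.37 FPKM (-0.37, limma adjusted p = 0.0198). The list, which was chosen with earlier results of these data known, thus held changes in both directions.

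The RNA polymerase I group holds 3 subunits of the enzyme (POLR1A and POLR1B, which form its catalytic core, and POLR1E), the subunit POLR1C shared with RNA polymerase III, the promoter factor UBTF, and TCOF1, the nucleolar scaffold treacle that brings UBTF and the polymerase to ribosomal DNA. POLR1E (chromosome 9, 37485948 to 37503697) had 14.1 and 12.6 FPKM in the controls and 17.8 and 17.2 with sh-circMYBL2. The rise of 0.37 (SE 0.06, limma adjusted p = 0.0486) was the largest RNA change of the 37 genes. UBTF RNA was 17.3 and 17.1 FPKM in the controls against 21.9 and 20.1 with sh-circMYBL2, a difference of 0.27 (SE 0.05, limma adjusted p = 0.0576) that just missed the threshold. POLR1A, POLR1B, POLR1C and TCOF1 differed by at most 0.06 in size. Of 19 tested genes for other subunits and factors of this polymerase, none passed in RNA by limma, 5 had an unadjusted p under 0.05, and voom called 2 that rose and 1 that fell. Their median was -0.02.

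TCOF1 (ENSG00000070814, chromosome 5, 150357697 to 150400293) had the lowest footprint change of the set. Its footprints were 41.0 and 42.5 RPKM with sh-NC, from 38 and 89 reads. With sh-circMYBL2 they were 11.6 and 4.14 RPKM, from 34 and 52 reads. Both sh-NC libraries were more than 3 times as high as either of the others, while TCOF1 RNA was level at 5.19, 5.83, 5.49 and 5.54 FPKM. The footprint change was -2.41 (SE 0.62, 95% interval -4.11 to -0.71) with an adjusted p of 0.323 by limma, and the TE change was -2.41 with an adjusted p of 0.0915. Neither passed, but voom on recovered reads called both (footprints -2.84, adjusted p = 9.07e-05; TE -2.77, adjusted p = 0.0453). The scaled reads with sh-circMYBL2 were 0.132 times those with sh-NC (counting interval 0.0993 to 0.175). That ratio was 0.277 without sh-circMYBL2 library b and 0.0985 without library a, so its size depended on which was kept.

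UBTF footprints moved against its RNA, at 20.9 and 27.0 RPKM in the controls and 14.4 and 10.4 RPKM with sh-circMYBL2. The groups did not overlap, and the scaled reads were 0.444 times as many (counting interval 0.313 to 0.640). POLR1B had no footprint in sh-NC library 1 and 9.36 RPKM in library 2, then 7.93 and 16.6 RPKM, so the hairpins overlapped. Its change of 1.96 (SE 1.36, interval -1.76 to 5.68, limma adjusted p = 0.627) depended on the control kept: it was 0.28 without sh-NC library 1 and 3.65 without sh-NC library 2. Its TE change was 1.90 (interval -1.81 to 5.61, limma adjusted p = 0.581). POLR1E footprints were 9.68, 6.43, 9.22 and 6.08 RPKM, from 2, 3, 6 and 17 reads, and overlapped. Summed over the group, polymerase I footprints were 90.3 and 99.4 RPKM in the controls and 67.5 and 54.2 RPKM with sh-circMYBL2. TCOF1 carried that gap: the other 5 genes summed to 49.3, 56.9, 55.9 and 50.04 RPKM, which overlap, and without UBTF as well the sums were 28.4, 29.9, 41.5 and 39.6 RPKM, higher with sh-circMYBL2.

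The 9 snoRNP proteins belong to box C/D or box H/ACA particles. The box C/D particles that methylate ribosomal RNA hold FBL, the methyltransferase, with NOP56 and NOP58, whereas RRP9 is specific to the U3 particle. Box H/ACA particles, which turn uridine into pseudouridine, hold DKC1, the synthase, with GAR1, NHP2 and NOP10. NOLC1 is a chaperone of both. None passed in RNA. FBL (chromosome 19, 39834458 to 39846379) had 86.8, 95.4, 101 and 118 FPKM, higher in both sh-circMYBL2 libraries (0.26, SE 0.09, limma adjusted p = 0.163). GAR1 had 38.6 and 43.9 FPKM in the controls and 34.6 and 32.7 with sh-circMYBL2, the lowest change of the 37 genes in RNA (-0.28, SE 0.07, limma adjusted p = 0.0986). The partners of GAR1 did not share one direction: DKC1 was level at 74.1 to 79.6 FPKM, NHP2 ran from 11.3 to 14.9 FPKM with overlap, and NOP10 was 54.1 and 57.9 FPKM against 48.1 and 48.7.

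FBL footprints were 134 and 146 RPKM in the controls (24 and 59 reads) and 76.4 and 58.7 RPKM with sh-circMYBL2 (43 and 142 reads). The groups did not overlap, and the direction was opposite to that of FBL RNA. The scaled read ratio was 0.435 (counting interval 0.334 to 0.571), while the limma change was -1.05 (SE 0.36, adjusted p = 0.360) in footprints and -1.32 (SE 0.31, adjusted p = 0.0705) in TE. RRP9 footprints were 30.8 and 34.1 RPKM with sh-NC, from 4 and 10 reads, and 7.34 and 10.8 RPKM with sh-circMYBL2, from 3 and 19. Its RNA was 5.84 to 6.53 FPKM and overlapped. The RRP9 footprint change was -1.75 (SE 0.47, limma adjusted p = 0.323) and its TE change -1.71 (SE 0.37, adjusted p = 0.0606), so neither passed.

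Among the core partners of FBL, NOP56 footprints were 15.8, 42.9, 14.3 and 19.8 RPKM, and NOP58 footprints 36.8, 11.4, 29.3 and 34.0 RPKM. Both overlapped, and the controls differed from each other by more than 2-fold. The scaled read ratio was 0.543 (counting interval 0.390 to 0.766) for NOP56, in the direction of FBL, and 1.72 (1.04 to 3.04) for NOP58. These intervals leave out the spread between libraries, and limma called neither gene in footprints. The difference between these genes and FBL was not tested. NOLC1 was 42.9 and 33.9 RPKM in the controls and 46.7 and 43.7 with sh-circMYBL2. DKC1 stayed between 24.4 and 31.8 RPKM. NHP2 and NOP10 had no read in sh-NC library 1 and 2 reads each in library 2, and GAR1 had none in library 2, so a difference in these 3 genes was not detectable at this depth.

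The 8 factors of 40S assembly are UTP15, WDR43 and WDR75 of the complex that binds the growing precursor first, UTP20, NOP14, RRP12, BYSL and the RNA acetyltransferase NAT10. NOP14 RNA (chromosome 4, 2937936 to 2963406) was 75.2 and 75.8 FPKM in the controls and 85.2 and 87.8 FPKM with sh-circMYBL2. Both pairs were tight, and the rise of 0.19 (SE 0.03) passed with a limma adjusted p of 0.0427. RRP12 had 6.27 and 6.67 FPKM against 5.51 and 5.51, WDR43 60.3 and 59.98 against 57.1 and 55.2, and NAT10 32.3 and 32.3 against 30.7 and 30.6, without overlap and below the threshold. Of 49 other tested genes of this step, 1 rose in RNA (NOP9, 0.29) and 1 fell (UTP11, -0.26).

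WDR43 footprints were 14.7 and 7.83 RPKM in the controls and 31.8 and 27.6 RPKM with sh-circMYBL2. Both sh-circMYBL2 libraries were higher, with 161 reads against 11 and a scaled ratio of 2.86 (counting interval 1.55 to 5.84). UTP15 had 0 footprint reads in both controls and 4 and 52 reads with sh-circMYBL2 (2.44 and 7.39 RPKM). With 3 reads over both controls as the floor, the scaled ratio was 3.64. This value takes the 56 reads with sh-circMYBL2 as exact, so it is not a lower limit. Most of those reads came from library b. The fitted footprint change of UTP15 was 2.43 (limma adjusted p = 0.325) and its TE change 2.44 (limma adjusted p = 0.0964). Both depend on the pseudocount. With 0.1 they were 5.45 (limma adjusted p = 0.143) and 5.46 (limma adjusted p = 0.0144), so TE passed there and footprints did not. With 5 they were 0.94 and 0.95. Without sh-circMYBL2 library a they were 3.07 and 3.08. NOP14 footprints were 3.44, 27.4, 19.6 and 20.3 RPKM, and the hairpins overlapped. The summed 40S group was 32.0 RPKM in sh-NC library 1, with 11 reads, and 86.5, 96.6 and 102 RPKM in the other libraries.

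The 7 factors of 60S assembly include BOP1, PES1 and WDR12, which form the PeBoW complex that acts on the precursor of the large subunit, the methyltransferase NOP2, NOP16, PPAN and RRP1B. WDR12 RNA was 28.5 and 26.5 FPKM in the controls and 22.6 and 24.4 FPKM with sh-circMYBL2 (-0.22, SE 0.06, limma adjusted p = 0.104). Of its complex partners, PES1 had 9.93 to 11.2 FPKM with overlap, and BOP1 had 4.84 and 5.39 FPKM in the controls against 5.70 and 5.43, without overlap and below the threshold. BOP1 footprints were 55.6 and 63.8 RPKM in the controls and 24.9 and 32.1 RPKM with sh-circMYBL2. They did not overlap, and the scaled ratio was 0.502 (counting interval 0.372 to 0.687). PES1 footprints (5.34, 14.2, 8.48 and 9.07 RPKM) and WDR12 footprints (5.34, 8.88, 5.52 and 7.31 RPKM) did overlap, and the difference between these PeBoW genes was not tested. PPAN had 14.1 and 10.4 RPKM against 4.49 and 6.61, from 3 to 19 reads, and lies over P2RY11 and a readthrough gene, so its reads are not assigned with certainty. In RNA, 52 other tested genes of this step gave 2 that rose (WDR74, 0.39; ZNF622, 0.35) and 3 that fell (SBDS, -0.31; MAK16, -0.25; GTPBP4, -0.20).

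The other nucleolar proteins were the most abundant of the set. NCL (nucleolin), which binds ribosomal RNA precursors, had 496, 538, 499 and 516 FPKM. NPM1 (nucleophosmin), a histone and ribosomal protein chaperone that is often mutated in acute myeloid leukaemia, had 483, 464, 456 and 455 FPKM. Their changes were -0.02 (SE 0.05, limma adjusted p = 0.796) and -0.06 (SE 0.04, limma adjusted p = 0.382). NPM1 has 45 pseudogenes named after it among the genes measured or listed here, and reads shared with them could not be told apart. DDX21 (chromosome 10, 68956170 to 68985068), a helicase that acts in transcription by RNA polymerases I and II, had 87.0 and 87.2 FPKM in the controls and 75.9 and 74.2 FPKM with sh-circMYBL2. It fell by 0.21 (SE 0.03, limma adjusted p = 0.0344), with no overlap and pairs that differed by under 2 FPKM. PA2G4, a growth regulator found in the nucleolus, was 26.9, 27.9, 30.4 and 32.0 FPKM, GNL3 (nucleostemin) 56.3, 58.8, 51.7 and 53.7, and LYAR 23.4 to 24.0.

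None of these proteins separated the hairpins in footprints. NCL had 70.2, 109, 101 and 82.1 RPKM, a change of 0.06 (SE 0.41, limma adjusted p = 0.956) with a scaled ratio of 0.884 (counting interval 0.751 to 1.04). NPM1 had 57.2, 46.4, 38.3 and 55.6 RPKM, a change of -0.15 (SE 0.41, limma adjusted p = 0.886) and a ratio of 1.05 (0.778 to 1.45). Their TE changes were 0.09 (NCL, limma adjusted p = 0.925) and -0.10 (NPM1, limma adjusted p = 0.907). DDX21, whose RNA fell, had 43.6, 79.4, 64.6 and 79.1 RPKM. The footprint intervals of NCL and NPM1 reached from -1.07 to 1.19 and from -1.28 to 0.97 on the log2 scale, so changes up to about these sizes were not detectable here.

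The 3 RNA calls of the set each ended when any 1 of the 4 RNA libraries was left out, as did every call in the table. The adjusted p of DDX21 was then 0.129 to 0.159, that of NOP14 0.136 to 0.175 and that of POLR1E 0.0930 to 0.182. Their changes kept their sign and lay between -0.23 and -0.20, 0.17 and 0.21, and 0.30 and 0.45. With voom on recovered reads, 5 of the 36 genes rose (FBL, NOP14, PA2G4, POLR1E and UBTF) and 6 fell (DDX21, GAR1, GNL3, MYC, RRP12 and WDR12), while 26% of all genes tested were called. Under scaling to protein-coding genes, DDX21 and NOP14 passed and POLR1E did not (adjusted p = 0.0532 by limma).

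**Figure D3:**
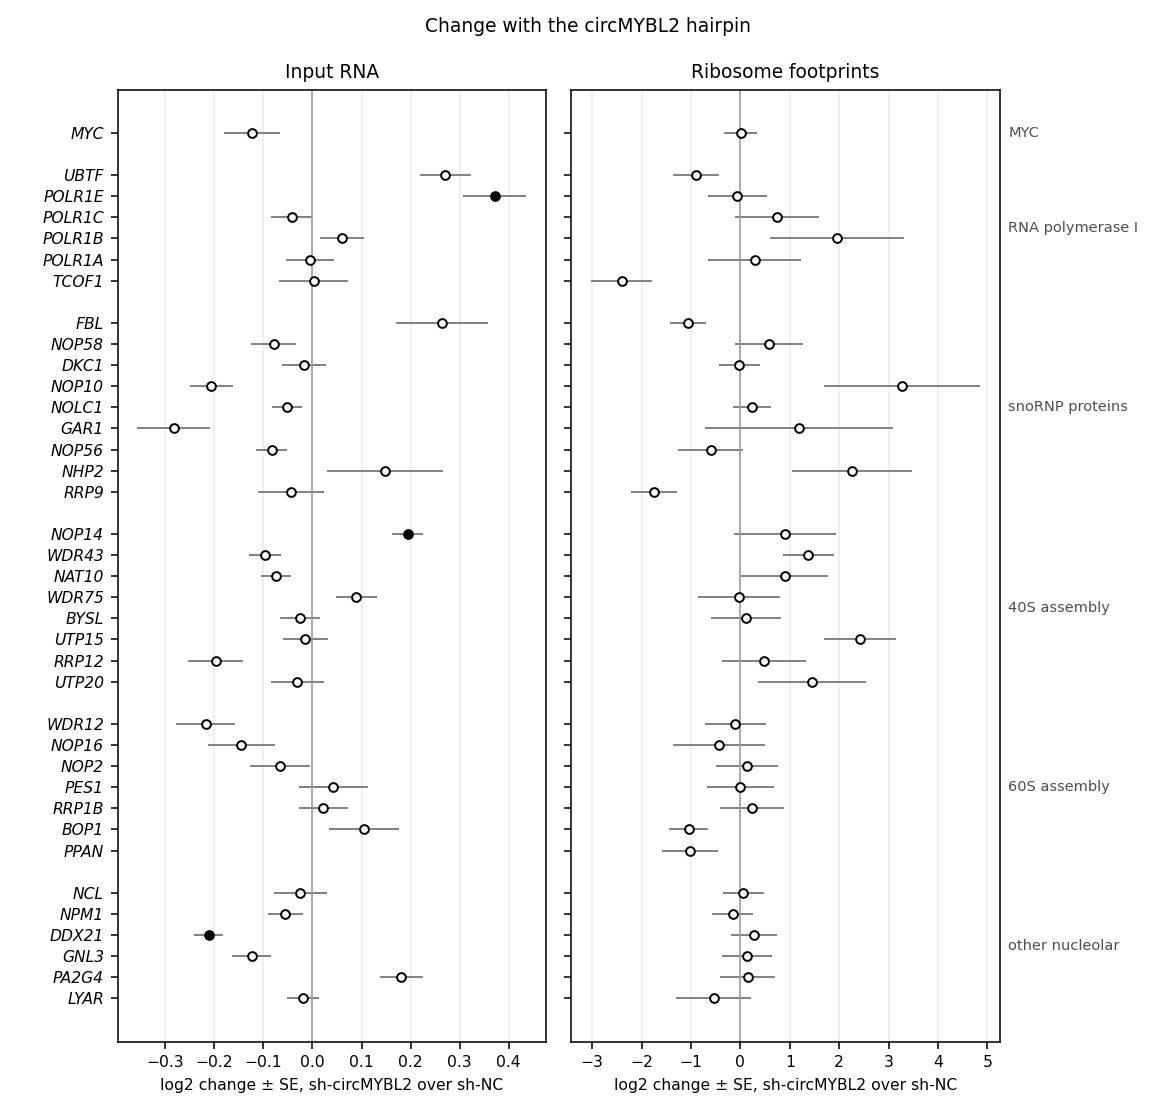
Fitted log2 change with the circMYBL2 hairpin (x axis) for each gene (y axis) in input RNA on the left and footprints on the right; bars are the SE of the limma fit and filled points are adjusted p under 0.05. The filled points are POLR1E, NOP14 and DDX21 in RNA and no footprint point is filled; the 2 panels have different x scales.

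In all, 7 further lists of ribosome production and nucleolar genes outside the set held 172 genes tested in RNA, of which 8 rose and 6 fell (8.14%, against 8.88% of all genes), with a median of 0.00. Besides those named, POP1 (0.30) and EXOSC8 (-0.40) changed among the processing nucleases. HEXIM1 (0.30) and MDM2 (-0.30) changed in the list drawn up for the 5S particle and p53. None of 12 snoRNP core and assembly factors passed by limma or had an unadjusted p under 0.05, and voom called 1. In the list of nucleolar proteins with other main roles, 3 of 12 rose: MKI67, the proliferation marker Ki-67, from 4.37 ± 0.0279 to 9.07 ± 0.407 FPKM (0.91, limma adjusted p = 0.0109), PARP1 (0.43) and HNRNPU (0.23). None of the 171 tested in footprints passed by limma (24 at an unadjusted p under 0.05) or by voom. In TE, 12 of 169 rose and 1 fell (7.69%, against 5.31% of all genes), and 11 of the 12 had no footprint in either sh-NC library. By voom the balance in TE turned, with 1 that rose and 3 that fell.

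Footprint level was also set against RNA level, gene by gene, as mean RPKM over mean FPKM. The tables were normalised separately, so only the order of genes within a hairpin is read from this ratio. The median of the 37 genes was 0.598 in the controls and 0.616 with sh-circMYBL2, and that of 7386 protein-coding genes was 0.643 and 0.851. NPM1 was the lowest gene above 0 with either hairpin, at 0.109 and 0.103, with NCL near it at 0.173 and 0.181. These 2 genes have the highest RNA of the set and the fewest footprints for it, apart from UTP15 with sh-NC. Reads that NPM1 shares with its pseudogenes could not be told apart, and their part in its ratio was not tested. MYC had 1.39 and 1.53, so that MYC was above NCL and NPM1 in footprints in all 4 libraries although its RNA was below theirs. PPAN (18.05 and 6.56), BOP1 (11.7 and 5.13), TCOF1 (7.57 and 1.43) and RRP9 (5.12 and 1.48) were highest in the controls, and all 4 had under 7 FPKM of RNA and lower footprints with sh-circMYBL2. They were picked by a ratio that holds the same control footprints, so the lower footprints are not independent of that choice.

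**Figure D4:**
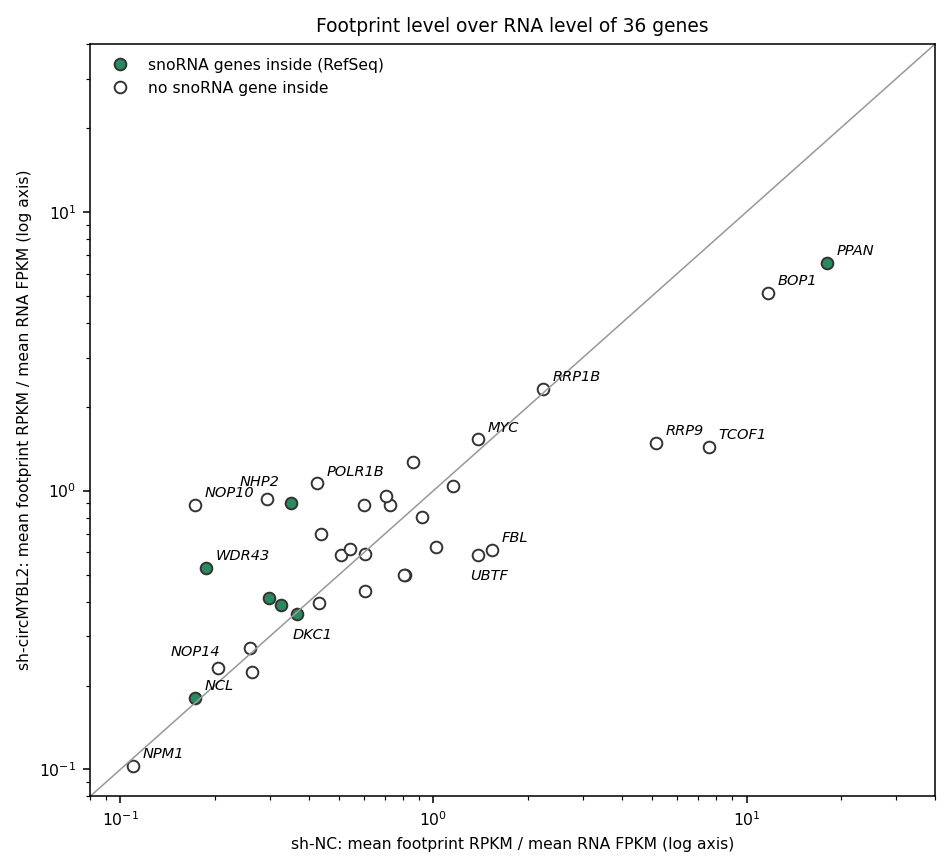
Mean footprint RPKM over mean RNA FPKM for 36 genes, with sh-NC on the x axis and sh-circMYBL2 on the y axis (log axes; the line marks equal values; UTP15, at 0 with sh-NC, is not drawn; filled points are genes with snoRNA genes inside). NPM1 and NCL lie lowest and on the line, MYC lies near it, and PPAN, BOP1, TCOF1 and RRP9 lie to the right of it.

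Of the set, 8 genes carry snoRNA genes within their bounds in RefSeq: NOP56, NOP58, DKC1, UTP20, WDR43, PPAN, NCL and GNL3. Their median ratio of footprints to RNA was 0.338 in the controls and 0.456 with sh-circMYBL2, against 0.605 and 0.698 for the other 29. Over all protein-coding genes, 290 with snoRNA genes inside had medians of 0.567 and 0.744, against 0.647 and 0.857 for 7096 without. Genes with snoRNAs inside also had more RNA, the denominator of this ratio. Its control median was 58.8 against 17.2 FPKM in the set and 12.3 against 7.42 FPKM over all, and its part was not tested. These are descriptions across genes, which are not independent replicates.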

How the data were processed

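Ribosome footprints and input RNA were sequenced from MOLM-13 cells with sh-NC or sh-circMYBL2, in 8 libraries. The authors' deposited footprint table holds RPKM and their deposited RNA table FPKM, per the file names and headers. The submitters' processing notes name cutadapt, Bowtie, HISAT2, featureCounts, DESeq2 and hg38; the sources used here give no versions, roles or strand setting, so overlapping or antisense genes may share reads. Titles gave the groups. The sh-circMYBL2 footprint columns name the group only.

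Symbols were read from the footprint table, because 27 in the RNA table had become dates. Each table was fitted with limma 3.58.1 (R 4.3.3; lmFit, eBayes with trend, two-sided). Values entered as log2(value + 1), and genes under a mean of 1 were left out. The hairpin-by-assay interaction over 8 libraries gave TE. Benjamini-Hochberg adjustment ran over all genes tested. Changes on this scale understate those of low genes. The values are whole multiples of a step, so reads were recovered (tolerance 0.02 reads; in simulated data, 88.0% of 2751 genes were exact and 99.7% of reads recovered). They gave depths, read ratios (exact 95% intervals), a floor of 3 reads, and a voom fit. Read ratios were scaled to the total implied by each library's step, which is not its recovered reads on genes. For footprint libraries 1 and 2 of the controls, then a and b, the implied totals were 82265, 185632, 258923 and 1113399. Recovered reads on genes were 80134, 300336, 222809 and 714949.

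The members and gene lists were chosen with earlier results of these data known. Every member may be named. Fitted RNA changes are given for members that passed, for MYC, NPM1, NCL, FBL and UBTF and for the 4 with the largest change among those that did not pass (GAR1, UBTF, FBL and WDR12). Fitted footprint and TE changes are given for MYC, NPM1, NCL, FBL, POLR1B and the 4 with the smallest p. Of each list, up to 3 genes per direction are named. The 8 genes with snoRNAs inside, PPAN and the genes set apart by non-overlap are described by library values. Alternatives were other pseudocounts, filters, scalings, voom, array weights, a replicate block and leaving out each library. The fits were also tested on simulated data.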

Additional observations from a re-analysis of the deposited data

How the results depend on the processing

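The count of RNA calls went from 1109 (3 of the gene set) to 97 (0) without a filter on low values and 3250 (11) with voom. A filter of a mean of at least 5 gave 5 of the set, the added genes being UBTF and NOP10. Leaving out 1 RNA library gave 0 to 0 calls, and 0 in the set. Same-numbered RNA libraries share only a number (r = 0.03 over 12489 genes), and a fit with that number as a replicate block gave 0 calls and 0 in the set. Footprint columns carry no numbers, so no paired analysis was possible there. Footprint calls went from 0 (0 of the set) to 54 (1) with voom and 0 to 746 (0 to 1) with 1 library left out. TE calls went from 439 (0 of the set) to 853 (3) with a pseudocount of 0.1, 2 with a pseudocount of 5, 42 with the higher filter, 0 with quantile normalization, 175 (1) with voom, 1 with array weights, and 0 to 4953 (0 to 19) with 1 library left out, where the lone library of a group is assumed to vary like the others. Changes near 0 turned sign. With 1 library left out, NCL ran from -0.083 to 0.033 in RNA, -0.25 to 0.37 in footprints and -0.23 to 0.40 in TE, NPM1 from -0.42 to 0.11 in footprints and -0.36 to 0.16 in TE, and MYC from -0.031 to 0.052 in footprints. With quantile normalization NPM1 was 0.11 in footprints and 0.10 in TE, with scaling to protein-coding genes MYC footprints were -0.031, and with voom the TE change was -0.058 for NCL and 0.0070 for NPM1. Quantile normalization moved MYC further, to 0.73 in footprints and 0.61 in TE, and NCL to 0.57 and 0.44. None of these passed the threshold. The cause of these differences was not tested. The set's median change stayed between -0.05 and -0.01 in RNA, -0.15 and 0.14 in footprints and 0.00 and 0.29 in TE. Depth limits the footprints: the median gene of the set had 4 reads in sh-NC library 1 and 74 in sh-circMYBL2 library b.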

Other observations

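RefSeq places snoRNA genes inside 8 of the genes described, and 14 of those snoRNA genes matched a row of the tables, in 7 hosts. In input RNA, 8 were tested and none passed by limma. Their levels were far apart: SNORD53B, inside WDR43, had a mean ± SD of 6536 ± 243 FPKM in the controls and 6783 ± 769 FPKM with the other hairpin (n = 2 each), whereas its neighbour SNORD53 had 34.1 ± 4.65 and 33.9 ± 1.72 FPKM.

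The footprint libraries hold many reads of these small RNAs. SNORD69, a box C/D RNA inside GNL3, had 25575 and 23507 RPKM in the controls and 9380 and 2788 RPKM with sh-circMYBL2, while its host GNL3 stayed between 14.7 and 24.4 RPKM. SNORD105, inside PPAN, had 1001 and 634 RPKM in the controls and 90.9 and 31.7 RPKM with sh-circMYBL2, in the same direction as PPAN itself. SNORD82, inside NCL, had 2952 and 8004 RPKM in the controls and 4469 and 1681 RPKM with sh-circMYBL2, so its libraries overlapped. SNORD53B went the other way, with 0 and 207 RPKM in the controls and 644 and 345 RPKM with sh-circMYBL2, and SNORD92, also inside WDR43, had 286, 190.1, 182 and 380.4 RPKM with overlap. SnoRNAs are not translated, and these values describe what the footprint libraries contain. The share of microRNA reads in the same libraries was higher with sh-NC, and its part in these values was not tested. These snoRNAs were picked for description after their values were seen.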
